A study of Saccharomyces cerevisiae with 27 samples.

Results

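The genes described here make, import and attach biotin, the vitamin that carries carbon dioxide in carboxylases. There were 6 members, BIO2, BIO3, BIO4, BIO5, VHT1 and BPL1, among 6388 genes on the arrays, and each was found by its common name and systematic name. All 6 had a value on at least 3 arrays of every age, as did 5865 genes in all. The members were chosen by their own aged-over-young ratios, as synthesis genes said to be high and a transporter said to be low in old cells. Their ratios are therefore given as a description, with no test. In such ratios of bulk RNA, a change in the mix of cells and a change in RNA per cell cannot be told apart.

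The study measured wild-type cells of the budding yeast Saccharomyces cerevisiae, strain background W303, on 27 spotted arrays read in 2 colours. One channel held RNA from cells of a given replicative age, counted in generations (buds produced), and the other held RNA from young cells whose growth conditions, per the study's design text, were matched to those of the aged cells. There were 7 arrays at 1 generation, with young cells in both channels, 6 at 8 generations, 7 at 12 generations and 7 at 18-20 generations. Cells were kept in log phase and sorted with magnetic beads, no group carried a mutation, and no label tells whether replicate arrays stand for separate cultures. The RNA was amplified before it was dyed, and the aged RNA was in Cy3 in place of Cy5 on 11 arrays. The array medians of spot intensity ran from 292 to 4484.5 scanner units in red and from 260 to 3927.5 in green. In spot brightness over all spots, the 8-generation arrays and 18-20-generation array 7 formed a set (median r = 0.788). The other 20 arrays formed another (median r = 0.893), and between the sets the median r was 0.717. The cause was not tested, and at 8 generations age and array set cannot be told apart.

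In the last steps of biotin synthesis Bio3 adds an amino group to 7-keto-8-aminopelargonic acid, Bio4 closes a ring to give dethiobiotin, and Bio2, a mitochondrial iron-sulfur enzyme, inserts sulfur. Many laboratory yeast strains lack the earlier enzymes, so they import either the precursor, through Bio5, or biotin itself, through the proton symporter Vht1. Bpl1 then joins biotin to the few proteins that use it, among them acetyl-CoA carboxylase and the pyruvate carboxylases.

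The members did not move as one group. BIO4 and BIO3 were higher in aged than in young cells on every array at 12 and 18-20 generations, VHT1 was lower on every array at 18-20 generations, and BPL1 was lower on every array at 12 and 18-20 generations. BIO2 was high on some old arrays and low on others, and BIO5 gave dim spots with ratios near 0. The description that synthesis genes rise thus held for BIO3 and BIO4 in these arrays and not for BIO2. At 12 generations 2 members lay above every 1-generation array and 1 lay below every one; over all genes tested the shares were 8.05% above and 7.6% below. At 18-20 generations the members' counts were again 2 and 1, beside 17.7% of all genes above and 17.7% below. At 8 generations no member was clear of the 1-generation arrays in either direction, beside 0.188% of all genes above and 0.222% below. These are the contrasts that chose the members, so the counts carry no weight of their own.

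**Figure D1:**
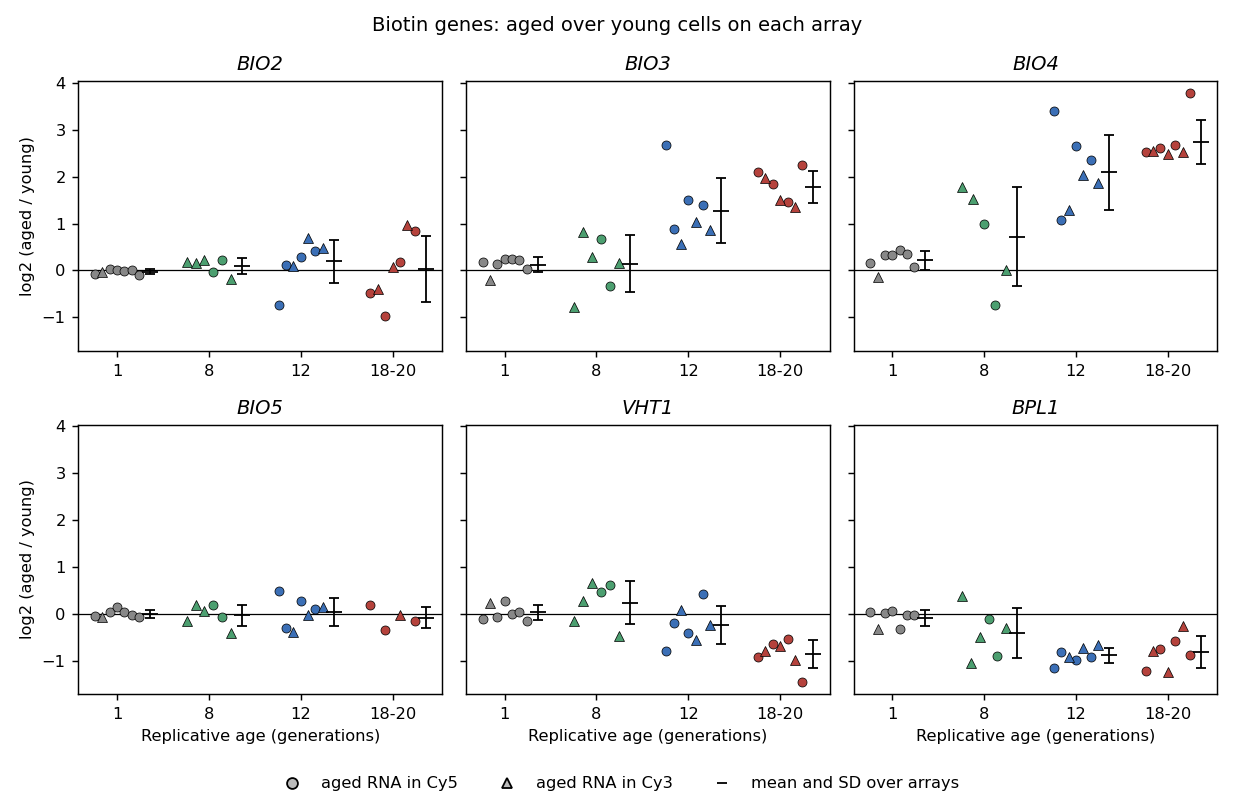
The log2 ratio of aged over young cells (vertical axis) for each member on each array, by replicative age in generations (horizontal axis). Circles are arrays with aged RNA in Cy5, triangles arrays with aged RNA in Cy3, and bars show the mean and SD over arrays. BIO3 and BIO4 stand above 0 on all 14 arrays of the 2 oldest ages, VHT1 stands below 0 on all 7 arrays at 18-20 generations, and BIO2 spreads to both sides.

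BIO4 (YNR057C, chromosome XIV), which encodes dethiobiotin synthetase, had the highest ratios of the 6. On the 18-20-generation arrays its log2 ratios were 2.54, 2.54, 2.60, 2.49, 2.69, 2.54 and 3.78 for arrays 1 to 7. Arrays 1 to 6 lay within a narrow band, with a mean of 2.57 ± 0.07 (SD, n = 6), and array 7 stood above them. Before normalization, the aged channel of that spot on array 7 read 48554 scanner units over its local background, against 3297 in the young channel, and 3% of its pixels were saturated in the aged channel. On array 5, the dimmest for this gene, the net values were 3916 and 485 units. At 12 generations the ratios spread more, from 1.08 through a median of 2.03 to 3.39, and overlapped those of 18-20 generations only on arrays 1 and 4. At 8 generations the 5 unmarked values were 1.78, 1.53, 0.99, -0.73 and 0.01, 3 above, 1 within and 1 below the range of the 1-generation arrays, which ran from -0.15 through a median of 0.33 to 0.44. The only negative value at 1 generation came from the single array with inverted dyes.

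The fit over all genes, which allows for the dye, put BIO4 at 0.16 ± 0.26 (SE), 0.73 ± 0.28, 2.08 ± 0.24 and 2.73 ± 0.24 on the log2 scale for the 4 ages in order. The last 2 correspond to 4.23-fold and 6.62-fold more BIO4 RNA in aged than in young cells. Among the 5865 genes tested these values ranked 35 at 12 generations and 27 at 18-20 generations, counted from the highest. Scaling all arrays to one spread lowered the value at 18-20 generations to 1.38 and raised that at 1 generation to 0.56.

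BIO3 (YNR058W, chromosome XIV), which encodes the aminotransferase of the step before, followed with smaller ratios. On the 18-20-generation arrays its log2 ratios were 2.11, 1.97, 1.84, 1.51, 1.46, 1.35 and 2.24 for arrays 1 to 7. All of them lay above every 1-generation value, which ran from -0.21 through a median of 0.18 to 0.25. At 12 generations the values ran from 0.57 through a median of 1.03 to 2.68, again all above the 1-generation arrays and overlapping the older age. At 8 generations they were -0.77, 0.83, 0.28, 0.67, -0.34 and 0.17, on both sides of the young range. The fitted log2 values were -0.02 ± 0.18 (SE), 0.21 ± 0.19, 1.25 ± 0.17 and 1.75 ± 0.17, the last 2 being 2.37-fold and 3.37-fold higher in aged cells. With the arrays scaled to one spread the last value was 0.86.

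Split by dye order at 12 and 18-20 generations, and by likeness among arrays at 18-20, the BIO3 and BIO4 means stayed above 0. Whether dye or likeness sets the size of the ratios was not tested. At 12 generations BIO3 averaged 1.62 ± 0.76 (SD, n = 4) with aged RNA in Cy5 and 0.82 ± 0.23 (n = 3) with aged RNA in Cy3, and BIO4 averaged 2.37 ± 0.97 and 1.73 ± 0.39. At 18-20 generations the same means were 1.91 ± 0.34 and 1.61 ± 0.32 for BIO3 and 2.90 ± 0.59 and 2.52 ± 0.03 for BIO4. Arrays 1 to 4 of the oldest age resembled each other over all genes (r = 0.931 to 0.965) more than they resembled arrays 5 to 7 (r = 0.632 to 0.73). BIO3 averaged 1.85 ± 0.26 (SD, n = 4) on arrays 1 to 4 and 1.69 ± 0.48 (n = 3) on arrays 5 to 7. BIO4 averaged 2.54 ± 0.05 and 3.00 ± 0.68 on the same arrays. At 12 generations arrays 2 and 3 (r = 0.804), 4 and 5 (r = 0.921) and 6 and 7 (r = 0.856) were alike, each pair with opposite dye orders. The highest r of any other pair there was 0.767. Arrays 5 and 6 of the oldest age had r = 0.873. No label tells whether arrays 1 to 4 of that age, or these pairs, share an RNA sample. The arrays of an age may thus not be independent, and their SDs and counts carry that limit.

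**Figure D2:**
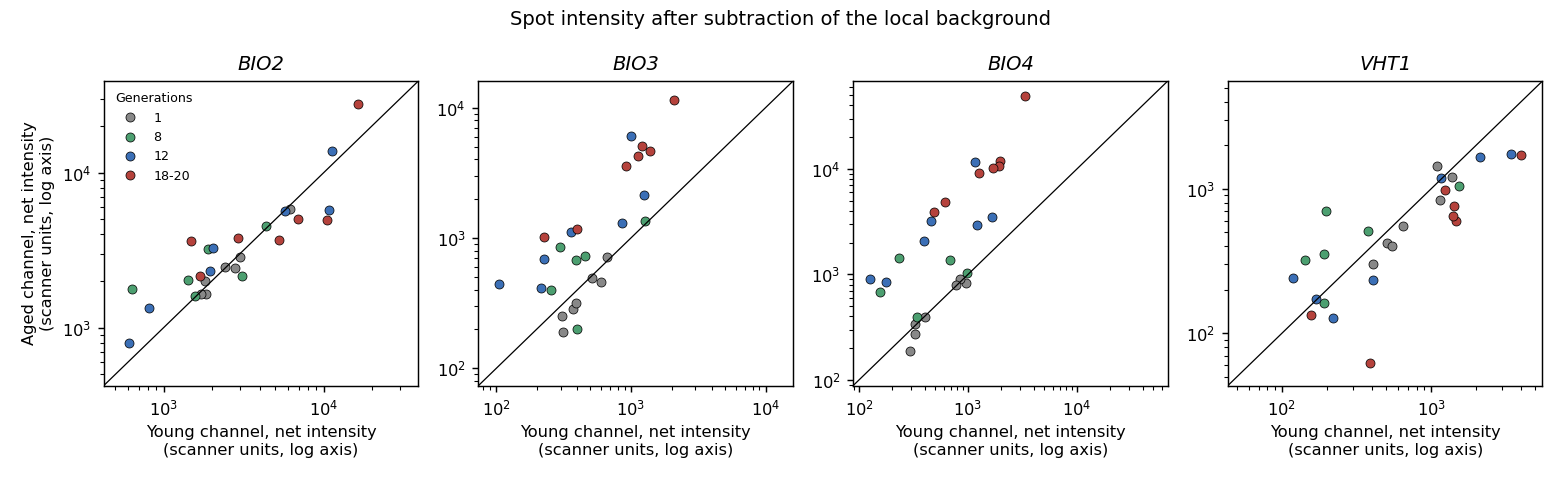
Net spot intensity in the aged channel (vertical axis) against the young channel (horizontal axis), in scanner units on log axes, for BIO2, BIO3, BIO4 and VHT1. Each point is an unmarked array coloured by age, and the line marks equal intensity. The 18-20-generation points of BIO3 and BIO4 lie above the line on all 7 arrays and those of VHT1 lie below it, while those of BIO2 fall on both sides; these values precede normalization, so the line is not the 0 of the log2 ratios.

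BIO2 (YGR286C, chromosome VII) encodes biotin synthase, the last step. Its spot was bright, with over 50% of pixels above background by 2 SD in both channels on all arrays. At 18-20 generations its log2 ratios were -0.48, -0.39, -0.96, 0.06, 0.18, 0.97 and 0.83 for arrays 1 to 7. The low values were on arrays 1 to 3 and the high ones on arrays 6 and 7. The mean was -0.44 ± 0.42 (SD, n = 4) on arrays 1 to 4 and 0.66 ± 0.42 (n = 3) on arrays 5 to 7, the same division that sets these arrays apart over all genes. The fitted value over all 7 was 0.05 ± 0.16 (SE), and leaving out 1 array at a time moved it from -0.11, without array 6, to 0.20, without array 3.

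At 12 generations the BIO2 values were -0.73, 0.12, 0.09, 0.30, 0.69, 0.41 and 0.47. Array 1 was low and the other 6 were above the 1-generation range, which was narrow, from -0.11 to 0.02. At 8 generations BIO2 ran from -0.18 through a median of 0.17 to 0.23. The fitted values at 8 and 12 generations were 0.06 ± 0.18 and 0.21 ± 0.16. In none of the older ages were the BIO2 arrays clear of the 1-generation arrays.

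BIO5 (YNR056C, chromosome XIV) encodes the importer of the biotin precursor, and its spot was close to background. Both channels passed the mark of 50% of pixels above background on 2, 3, 1 and 5 arrays at the 4 ages in order. Its spot was also marked, and left out, on 18-20-generation arrays 1, 2 and 4. Arrays 1 and 2 were among the 5 counted at that age. Array 6, which was kept, had 0% of its young-channel pixels above background. The remaining log2 ratios there were 0.20, -0.35, -0.02 and -0.15 on arrays 3, 5, 6 and 7, to both sides of 0. At 12 generations they ran from -0.39 through a median of 0.10 to 0.48. At 8 generations the range was -0.40 to 0.19, and at 1 generation -0.07 to 0.15, so all ages overlapped. The fitted values were -0.04 ± 0.11 (SE), -0.01 ± 0.11, 0.03 ± 0.10 and -0.11 ± 0.14, and with a signal this weak a difference between ages would be hard to see.

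VHT1 (YGR065C, chromosome VII), the gene of the biotin symporter, was lower in the oldest cells. Its log2 ratios at 18-20 generations were -0.91, -0.79, -0.65, -0.69, -0.53, -0.98 and -1.46 for arrays 1 to 7, with array 7 the lowest. None reached the 1-generation arrays, whose lowest value was -0.15 and whose highest was 0.27. The fitted value was -0.86 ± 0.14 (SE), or 1.82-fold less VHT1 RNA in aged cells, and it was -0.43 with arrays scaled to one spread. The mean was -0.89 ± 0.41 (SD, n = 4) with aged RNA in Cy5 and -0.82 ± 0.14 (n = 3) in Cy3. On array 5 the aged net signal was 62 scanner units against 387 for the young, and that spot had 47% of its aged-channel pixels above the background mark, so the aged RNA was barely seen there.

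At 12 generations VHT1 leaned the same way by less, and at 8 generations it leaned the other way. At 12 generations the values were -0.79, -0.20, 0.08, -0.42, -0.56, 0.42 and -0.23, lower on 5 of 7 arrays and overlapping both the 1-generation and the 18-20-generation arrays. The 8-generation values were -0.15, 0.28, 0.66, 0.48, 0.62 and -0.48, higher on 4 of 6 arrays. The fitted values at these ages were -0.25 ± 0.14 and 0.24 ± 0.15.

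BPL1 (YDL141W, chromosome IV) encodes the ligase that attaches biotin to its target proteins, and so belongs to neither synthesis nor uptake. Its log2 ratios at 12 generations were -1.16, -0.81, -0.92, -0.99, -0.74, -0.92 and -0.66, a tight set that lay below all 1-generation arrays, the lowest of which was -0.33. At 18-20 generations they were -1.21, -0.79, -0.74, -1.25, -0.58, -0.27 and -0.89, and array 6 alone fell within the 1-generation range. The fitted values were -0.88 ± 0.13 (SE) and -0.81 ± 0.13, or 1.84-fold and 1.76-fold lower in aged cells, and the 2 ages overlapped. At 8 generations the values were 0.39, -1.05, -0.49, -0.10, -0.89 and -0.31, lower on 5 of 6 arrays and in part within the 1-generation range, with a fitted value of -0.42 ± 0.14. Scaled to one spread, the values at 12 and 18-20 generations were -0.64 and -0.40. On 12-generation array 6 the aged net signal of BPL1 was 83 scanner units against 422 for the young. That spot had 48% of its aged-channel pixels above the background mark.

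The direction of 8-generation array 1 was unsettled, since over all genes it ran against some other arrays of that age. It had r = -0.643, -0.58 and -0.106 with arrays 2, 3 and 6, which share its dye order. With arrays 4 and 5, which have the other order, r was -0.661 and -0.001. In the authors' deposited table the columns of 8-generation arrays 1 and 3 each matched the other's scanner file (r = 0.97 and 0.943) and were opposed to the file of the same number (r = -0.581 and -0.572), and one label of array 3 leaves out the dye inversion that its title gives. Which array of the pair, and which sign, each set of 8-generation values belongs to is thus unsettled. With the sign of array 1 turned, the 8-generation mean of BIO3 went from 0.14 ± 0.61 (SD, n = 6) to 0.40 ± 0.45. For VHT1 it went from 0.23 ± 0.46 to 0.29 ± 0.42, for BPL1 from -0.41 ± 0.53 to -0.54 ± 0.36 and for BIO2 from 0.10 ± 0.16 to 0.03 ± 0.19. The BIO4 spot was marked on that array, so its mean of 0.72 ± 1.06 (n = 5) did not depend on the sign.

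Ratios from 2 genes can be set against each other array by array, as a description across points that share arrays, ages and young control cells. BIO3 and BIO4 had r = 0.95 over 26 arrays, and each was the second most similar of the genes ranked for the other, behind RIM15 for BIO3 and PTP1 for BIO4, genes named after their values were seen. Within ages, r between BIO3 and BIO4 was 0.930 (n = 7), 0.859 (n = 5), 0.917 (n = 7) and 0.565 (n = 7) from the youngest to the oldest. With each age's mean removed it was 0.796 over all arrays. BIO2 had r = -0.15 with BIO3 and 0.08 with BIO4. BIO5, whose spot was close to background, had r = 0.36 with BIO3 (24 arrays) and 0.29 with BIO4 (23 arrays). Its r was 0.67 and 0.65 with each age's mean removed. VHT1 had r = -0.70 with BIO3 and -0.68 with BIO4, and BPL1 had r = -0.71 with BIO3 and -0.65 with BIO4. With each age's mean removed these became -0.24 and -0.25 for VHT1 and -0.43 and -0.13 for BPL1. The pooled opposition thus lay in part between the ages, on which the members were chosen. In single ages of 5 to 7 arrays, VHT1 had r = -0.18, 0.27, -0.53 and -0.58 with BIO3 from the youngest to the oldest. With BIO4 it had -0.14, 0.20, -0.48 and -0.81. For BPL1 the values were 0.48, -0.49, -0.79 and -0.48 with BIO3, and 0.28, -0.02, -0.67 and -0.02 with BIO4.

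**Figure D3:**
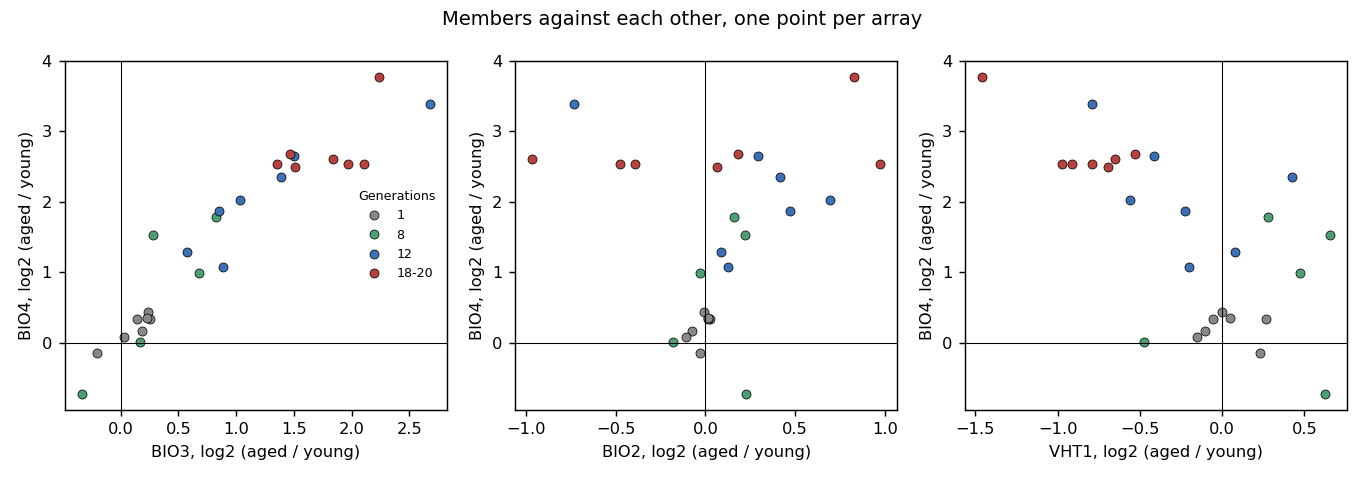
The log2 ratio (aged / young) of BIO4 (vertical axis) against that of BIO3, BIO2 and VHT1 (horizontal axes), 1 point per array, coloured by age in generations. BIO3 and BIO4 lie along a line (r = 0.95 over 26 arrays), BIO2 does not order the points (r = 0.08), and VHT1 runs the other way (r = -0.68, and -0.25 with each age's mean removed).

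By the rule for named genes, the 5 genes most like the mean of BIO2, BIO3 and BIO4 over arrays were PTP1 (r = 0.949), PDE1 (0.948), GCY1 (0.937), RTN2 (0.932) and XBP1 (0.932). PTP1 encodes a protein tyrosine phosphatase, PDE1 a cyclic AMP phosphodiesterase, GCY1 a glycerol dehydrogenase, RTN2 a reticulon and XBP1 a transcriptional repressor. At 18-20 generations PTP1 stood at 1.13 ± 0.14 (SE) on the log2 scale and RTN2 at 2.58 ± 0.30. The 5 most like VHT1 were RAS1 (r = 0.910), RRP45 (0.903), SER2, ERG2 and ALB1. RAS1 encodes a small GTPase, RRP45 an exosome subunit, SER2 phosphoserine phosphatase, ERG2 a sterol isomerase and ALB1 a factor of the large ribosomal subunit. RAS1 stood at -1.29 ± 0.19 and ERG2 at -2.69 ± 0.25 at 18-20 generations. These genes were picked for following members that were themselves chosen by their change with age, so their values are a description, with no test.

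For the other genes of the pathway the test was limma's, with p-values adjusted over all 5865 genes and a threshold of 0.05. At 12 generations 23.3% of all genes rose and 21.5% fell, and at 18-20 generations 32.9% rose and 31.2% fell. At 1 and 8 generations no gene passed in limma, 0% in either direction, although 13 and 748 genes had an unadjusted p under the same threshold. Counts of list members are read against these high shares.

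Of the 6 proteins that carry biotin, 1 gene rose and 3 fell at 18-20 generations, and 1 fell at 12 generations, with a list median of -0.27 beside 0.01 for all genes at the older age. ACC1, the cytosolic acetyl-CoA carboxylase that makes malonyl-CoA for fatty acids, fell by 1.61 ± 0.24 on the log2 scale (3.04-fold, adjusted p = 1.06e-06), lower on 7 of 7 arrays, and had fallen by 0.85 ± 0.24 at 12 generations (adjusted p = 0.00405). PYC1, a pyruvate carboxylase, rose by 0.72 ± 0.23 (adjusted p = 0.00711), but its arrays ran from -0.06 to 2.33, without array 7 the value was 0.43 (adjusted p = 0.0607), and with array weights it was 0.14 (adjusted p = 0.301). Its paralog PYC2 fell by 0.54 ± 0.20 (adjusted p = 0.0175). ARC1, a biotinylated partner of aminoacyl-tRNA synthetases, fell by 0.38 ± 0.13 (adjusted p = 0.0142). HFA1, the mitochondrial acetyl-CoA carboxylase, stood at -0.15 ± 0.11, and DUR1,2, the urea amidolyase, at -0.08 ± 0.13, with neither passing. ACC1 and HFA1, and PYC1 and PYC2, are similar in sequence and their spots may share signal.

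Like BIO2, PYC2 and ARC1 depended on which arrays of the oldest age were used. Without arrays 1 to 4 PYC2 stood at 0.34 (adjusted p = 0.206) and ARC1 at 0.03 (adjusted p = 0.892), so neither call held and both signs turned. Leaving out any single one of arrays 1 to 4 also ended the PYC2 call, at -0.42, -0.38, -0.45 and -0.45 (adjusted p from 0.0656 to 0.109). For ARC1, leaving out array 2, 3 or 4 did so, at -0.30, -0.31 and -0.31. With the arrays that are much alike averaged, PYC2 stood at -0.05 (adjusted p = 0.881) and ARC1 at -0.14 (adjusted p = 0.5).

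VHR1 encodes a transcription factor that activates VHT1 and BIO5 when biotin is low, and VHR2 a related protein. VHR1 rose at 18-20 generations by 0.50 ± 0.18 on the log2 scale (adjusted p = 0.0199), on 6 of 7 arrays, while at 12 generations it stood at -0.04 ± 0.18. The call was lost without array 2, 4 or 7, at 0.47, 0.44 and 0.41, and under 6 other alternatives, at values from 0.23 with the arrays scaled to one spread (adjusted p = 0.593) to 0.52 with plain background subtraction (adjusted p = 0.0856). VHR2 stood at -0.16 ± 0.21 (adjusted p = 0.519) and spread from -1.02 to 1.21 over the arrays. It stood at 0.73 without arrays 1 to 4 (adjusted p = 0.0188) and at -0.70 with array weights (adjusted p = 7.59e-06), so it passed in opposite directions under those alternatives.

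Biotin synthase uses S-adenosylmethionine and iron-sulfur clusters, and a list of 4 genes took in the 3 that supply the first of these and LIP5, another enzyme that uses it. All 4 fell at both 12 and 18-20 generations, with a list median of -2.00 beside 0.01 for all genes at the older age. The S-adenosylmethionine synthetases SAM1 and SAM2 fell by 2.66 ± 0.17 (6.3-fold, adjusted p = 4.78e-13) and 2.96 ± 0.19 (7.76-fold, adjusted p = 7.43e-13), each on 7 of 7 arrays, and as paralogs they may share signal. SAM3, the S-adenosylmethionine permease, fell by 1.35 ± 0.15 (adjusted p = 7.72e-09). LIP5, the mitochondrial lipoate synthase, fell by 0.30 ± 0.09 (adjusted p = 0.00607) at 18-20 generations and by 0.23 ± 0.09 (adjusted p = 0.0408) at 12 generations. The latter call was lost without array 1, 3, 4, 5 or 7, with values between -0.24 and -0.20, and under 7 other alternatives, the authors' deposited table among them. The LIP5 call at 18-20 generations was lost under 4 alternatives, at values from -0.28 to -0.14 (adjusted p from 0.0583 to 0.201).

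Of the 11 genes of iron-sulfur cluster assembly that could be tested of 12 listed, 2 rose and 3 fell at 18-20 generations, and 1 rose and 3 fell at 12 generations. ISU1, a scaffold on which clusters are built, rose by 2.01 ± 0.19 (4.04-fold, adjusted p = 3.94e-10), on 7 of 7 arrays. Its paralog ISU2 fell by 0.75 ± 0.20 (adjusted p = 0.00189), and the 2 may share signal. YAH1, the mitochondrial ferredoxin, fell by 1.17 ± 0.16 (adjusted p = 2.86e-07), and YFH1, the yeast frataxin, fell by 0.71 ± 0.14 (adjusted p = 0.000106). At 12 generations the ISU2 call was lost without array 2 or 3, at -0.42 and -0.31, and with array weights, at -0.38 (adjusted p = 0.0595).

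The iron regulon of the transcription factors Aft1 and Aft2 was included because Bio2 needs iron and because these factors are known in yeast to act on biotin genes when iron is scarce. Its list of 18 genes held AFT1 and AFT2 themselves. Of the 18, 10 rose and 4 fell at 18-20 generations and 5 rose and 3 fell at 12 generations. The list median was 0.40 beside 0.01 for all genes at the older age. AFT1 (0.43, adjusted p = 0.031) and AFT2 (0.81, adjusted p = 2.82e-05) were among the 10 that rose. HMX1, the heme oxygenase, rose by 2.51 ± 0.18 (adjusted p = 3.77e-12), and ARN2, a siderophore transporter, by 1.00 ± 0.12 (adjusted p = 7.87e-08). The ferroxidase FET3 and its permease partner FTR1, which form the high-affinity iron uptake complex, fell by 1.64 ± 0.24 (adjusted p = 1.01e-06) and 1.52 ± 0.22 (adjusted p = 1.01e-06).

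VHT1 can be set beside the transporters of other vitamins. Of 6 such genes, 4 fell and 0 rose at 18-20 generations by limma, against 4 and 1 at 12 generations. THI7, the thiamine transporter, fell by 1.22 ± 0.13 on the log2 scale (adjusted p = 4.95e-09). TPN1, for pyridoxine, fell by 1.14 ± 0.19 (adjusted p = 5.85e-06; -0.62 and adjusted p = 0.0616 without arrays 1 to 4), and TNA1, for nicotinic acid, by 0.98 ± 0.18 (adjusted p = 3.02e-05). FEN2, for pantothenate, fell by 0.34 ± 0.14 (adjusted p = 0.0426), a call lost without array 1, 2, 5, 6 or 7, at values from -0.34 to -0.28, and under 6 other alternatives, at values from -0.38 to -0.16. At 12 generations FEN2 fell by 0.36 ± 0.14 (adjusted p = 0.0419) and lost the call without array 2, 3 or 5, with values from -0.35 to -0.21, and under 6 other alternatives. TPN1 fell by 0.52 ± 0.19 there (adjusted p = 0.0259) and lost the call without array 1, 4 or 5, with values from -0.42 to -0.34. The drop of VHT1 to -0.86 thus lay within the range of the vitamin transporters, which ran from -1.22 to 0.31.

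**Figure D4:**
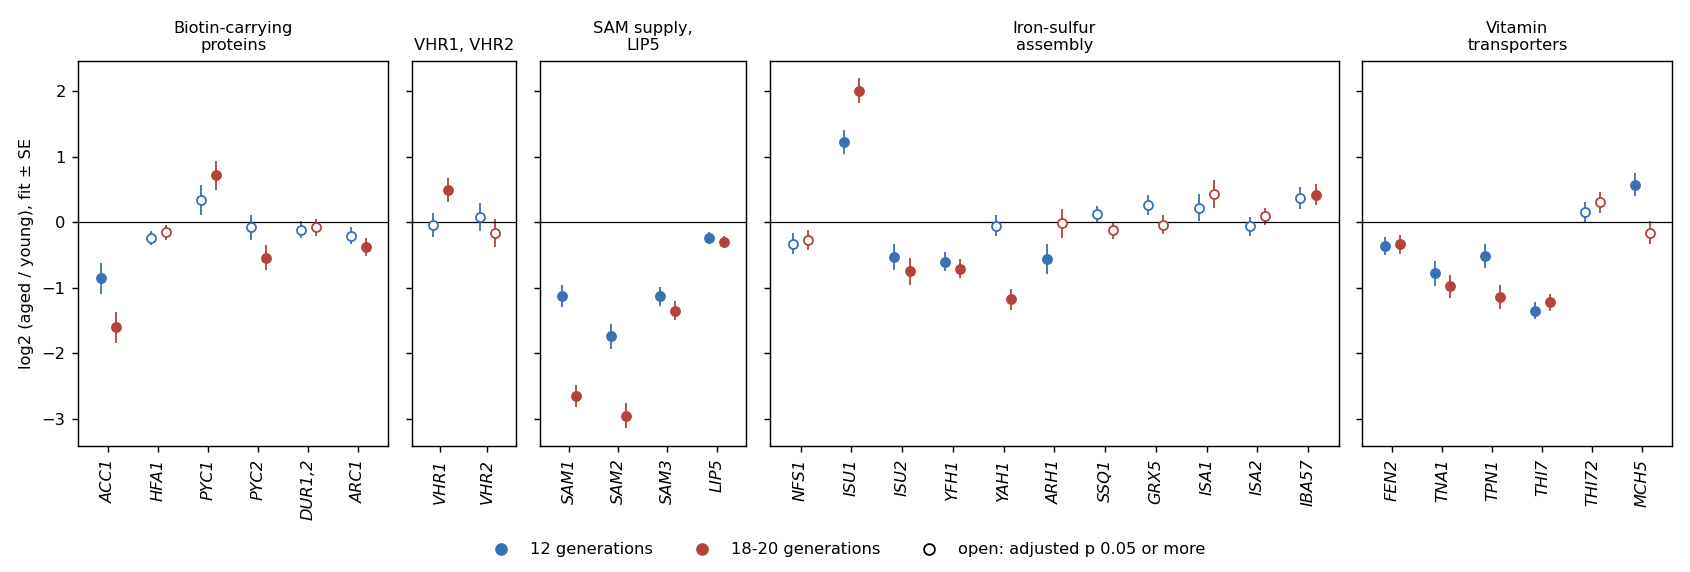
Fitted log2 ratio (aged / young) ± SE at 12 and 18-20 generations for the genes around biotin synthesis, in 5 lists, with gene names along the horizontal axes. Filled points have a limma adjusted p under 0.05 and open points do not. The S-adenosylmethionine genes are low at both ages (down to -2.96), ISU1 is high (2.01) and ACC1 is low (-1.61).

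BIO5, BIO4 and BIO3 lie side by side on the right arm of chromosome XIV, at places 23, 22 and 21 from the right end of its 420 genes in RefSeq's order. BIO3 is on the other strand from BIO4 and BIO5 by its systematic name, so BIO4 and BIO3 are transcribed away from each other. Of the 10 nearest measured genes, 5 on each side, 0 rose and 6 fell at 18-20 generations by limma, with values from -1.28 to 0.01. The immediate neighbours were HOL1 at 0.00 ± 0.14 (adjusted p = 0.99) and MNT4 at 0.01 ± 0.13 (adjusted p = 0.948). The high ratios of this stretch were thus those of BIO4 and BIO3, flanked by genes at or below 0. Around BIO2 4 of 10 neighbours rose and 4 fell, around VHT1 4 rose and 2 fell, and around BPL1 4 rose and 4 fell. At 18-20 generations GID10, next to VHT1, stood at 1.65 ± 0.25, opposite in sign to VHT1. SPT4, on its other side, stood at -0.25 ± 0.14 (adjusted p = 0.138), with the same sign as VHT1. Next to BIO2, ZUO1 fell by limma (adjusted p = 0.00232) and IMA1 stood at 1.33 ± 0.17. Next to BPL1, CRD1 stood at 0.80 ± 0.09 and RPO21 at -0.25 ± 0.19.

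**Figure D5:**
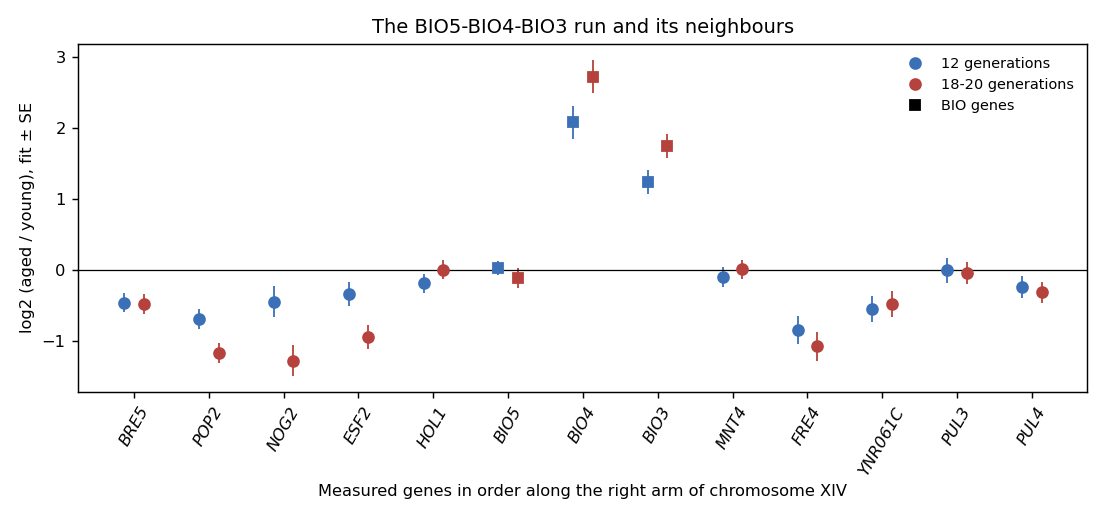
Fitted log2 ratio (aged / young) ± SE at 12 and 18-20 generations for BIO5, BIO4 and BIO3 (squares) and the 5 nearest measured genes on each side (circles), in their order along chromosome XIV (horizontal axis). BIO4 reaches 2.73 and BIO3 1.75 at 18-20 generations, while the 10 neighbours lie between -1.28 and 0.01.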

How the data were processed

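The deposited scanner files give, per the file headers, the median intensity and median local background of each spot in Cy5 and Cy3, and percent columns for pixels above background plus 2 SD and for saturated pixels. The authors' deposited table of log2 ratios, with its normalization not stated in any label or header, served as an alternative only. Its columns had medians from -0.0625 to 0.0984, and 23 of 27 correlated best with their own array. The other 4 were crossed pairs, 8-generation columns 1 and 3 and 1-generation columns 3 and 4, each matching its partner's scanner file. Scanner version and genome build are not used here.

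Analysis used limma 3.58.1 under R 4.3.3. Normexp with an offset of 50 corrected the background, and loess with a span of 0.3 normalized each array. Between 174 and 1157 marked spots per array were left out, spots of a gene were averaged, and ratios were turned to aged over young by the dye in the labels. One model over 27 arrays held a mean per age and a dye term, for the 5865 genes with values on at least 3 arrays of each age. P-values were adjusted by Benjamini-Hochberg over all of them. They reflect only the scatter of these arrays, which may be technical, and the median SE was 0.155 to 0.168. The script was tested on simulated data. The replicate numbers of the titles were not taken as pairs, since no label says what they mark. Of 39 same-numbered pairs of arrays, 12 had a correlation of deviations over 0.1. Pairs with different numbers were not measured beside them, so this count cannot decide whether the numbers mark pairs.

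The members and the 7 lists (62 genes) were chosen with earlier results of these data known. Named were all members, every biotin-carrying, regulator and S-adenosylmethionine gene, the 4 with the largest absolute value at 18-20 generations of each other list, the 5 most similar to the mean of BIO2, BIO3 and BIO4 and to VHT1 (at least 20 arrays), and the nearest measured neighbours. RefSeq's R64 table gave names and gene order (5849 names matched). No promoter or protein sequences were used here.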

Additional observations from a re-analysis of the deposited data

Results flagged for a closer look

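On single arrays, 8 of 99 groups of values held an array far from the rest, where chance gives about 1 in 20. BIO4 on 18-20-generation array 7 stood at 3.78, with the nearest array at 2.69. BIO2 on 12-generation array 1 stood at -0.73, with the nearest at 0.09, and PYC2 on the same array stood at -0.85, with the nearest at -0.09. The other 5 were all on 18-20-generation array 7, where PTP1 stood at 1.58, GCY1 at 3.33, XBP1 at 2.95, SER2 at -3.52 and ERG2 at -5.06. These 5 genes were picked for following BIO genes or VHT1 over these same arrays, array 7 included. Their flags partly restate that choice, so 8 of 99 cannot be read as an excess over chance. Without array 7 the fitted BIO4 value was 2.57.

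Between 12 and 18-20 generations, limma's test of the difference itself passed for 6 of the named genes of the lists. At the older age SAM1 was lower by 1.53 on the log2 scale (-1.53, adjusted p = 0.000106), SAM2 differed by -1.21 (adjusted p = 0.00271) and YAH1 by -1.12 (adjusted p = 0.000896). PAN6 differed by -1.17 (adjusted p = 0.00019) and RIB3 by -0.85 (adjusted p = 0.000162). ISU1 was higher at the older age by 0.79 (adjusted p = 0.0345). The share of all genes passing this difference is not given here, so the count of 6 is not read as a result about the lists. ISU1, YAH1, PAN6 and RIB3 were named for large absolute values at 18-20 generations. That age is part of the difference tested, so their differences lean on that choice. The 5 genes most like VHT1 also differed, RAS1 by -0.70, RRP45 by -0.89, SER2 by -1.12, ERG2 by -1.76 and ALB1 by -1.13. They were picked for following VHT1 over these same arrays, so their differences restate that choice and no test is given.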

How the results depend on the processing

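Scaling the arrays to one spread moved the most values. At 18-20 generations it gave BIO3 0.86, BIO4 1.38, VHT1 -0.43 and BPL1 -0.40, and at 12 generations BPL1 -0.64. At 1 generation it gave BIO3 0.19, BIO4 0.56 and BIO2 -0.01, the last with its sign turned. It called 1.14%, 0.0682% and 41% of genes at 1, 8 and 18-20 generations, against 0%, 0% and 64.2% in the standard fit, and 3 and 22 list genes at 1 and 18-20 generations. BIO2 at 1 generation also turned sign with print-tip loess, at -0.03, and without the dye term, at -0.02, and ran from 0.02 to 0.11 when 1 array was left out. Median centring gave BIO3 -0.19, BIO4 -0.04 and BIO5 -0.18 at 1 generation, and keeping marked spots gave BIO5 0.13 at 18-20 generations. At 8 generations, where the standard fit called 0 genes by limma (748 at an unadjusted p under 0.05), print-tip loess called 0.0171%, array weights 24.6%, a block that sets the 8-generation arrays and 18-20-generation array 7 apart from the other 20 arrays called 7.84%, and array 1 turned 9.07%. List genes called there were 17, 5 and 6 under the last 3, and leaving out 1 array gave 0% to 6.73% of genes, the highest without 8-generation array 1, and 0 to 5 list genes. The block of the 8-generation arrays and array 7, the set that stood apart in spot brightness, also gave BIO2 -1.04, BIO4 -0.45 and VHT1 1.01 at 8 generations. Every 8-generation array is in it, so its size was set only by how array 7 differs from the other arrays of its age. The 8-generation values and calls under it carry that difference and do not describe 8-generation cells alone. With the replicate number as a block, 0.153% of genes were called at 8 generations, and no count at another age moved by over 1.5 times. Array weights called 0.0341% of genes at 1 generation. Averaging 18-20-generation arrays 1 to 4, and 12-generation arrays 4 with 5 and 6 with 7, called 0.0171% there. That alternative was chosen after seeing the data. Leaving out 18-20-generation arrays 1 to 4, also chosen after seeing the data, turned PYC2 to 0.34 and ARC1 to 0.03. Apart from the arithmetic of the block with array 7, the cause of these shifts was not tested. Under the alternatives run, BIO3 and BIO4 stayed above 0 and BPL1 below 0 at 12 and 18-20 generations, and VHT1 stayed below 0 at 18-20 generations. Counting each other named gene, age and alternative apart, 76 calls were lost and 8 were gained. Signal over background limits BIO5 most among the members.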

Other observations

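The genes that make other vitamins moved in both directions. Of the 13 tested of 14 listed, 5 rose and 4 fell at 18-20 generations, and 2 rose and 2 fell at 12 generations. PAN6, the pantothenate synthase, fell by 1.84 ± 0.14 on the log2 scale (3.58-fold, adjusted p = 8.16e-12), and RIB3, of riboflavin synthesis, fell by 0.81 ± 0.10 (adjusted p = 4.93e-08). THI4, of thiamine synthesis, rose by 1.66 ± 0.35 (adjusted p = 0.000433) on the 3 arrays with a value. With young cells in both channels, its 4 values at 1 generation already ran from 0.54 to 0.79. The lowest THI4 value at 18-20 generations, 0.62, lay within that range. SNZ1, of pyridoxine synthesis, rose by 1.31 ± 0.34 (adjusted p = 0.00146), on 7 of 7 arrays. With the arrays scaled to one spread THI4 stood at 0.82 (adjusted p = 0.0549) and SNZ1 at 0.67 (adjusted p = 0.191), and neither passed. With the authors' deposited table THI4 stood at 1.44 (adjusted p = 0.106) at 18-20 generations and at 0.45 (adjusted p = 0.691) at 12 generations.

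BIO2 tracked other genes than BIO3 and BIO4 did. The gene with the highest r to BIO2 over 27 arrays was CEM1 (r = 0.854), a mitochondrial fatty acid synthesis enzyme, followed by GCV1 (r = 0.819), a subunit of glycine decarboxylase. Both were named after their values were seen. CEM1 stood at -0.25 ± 0.24 (SE, adjusted p = 0.358) at 18-20 generations and spread from -1.39 to 1.08 over the arrays.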
